A study of Mus musculus with 8 samples.

Results

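The 10 genes described here, Il1b, Tnf, Il6, Ccl2, Ccl5, Ccl6, Ccl24, Cxcl9, Cxcl10 and Cxcl1, encode secreted inflammatory cytokines and chemokines, and were matched by symbol among the 55487 genes counted in mouse liver. The study asked what the loss of the melanocortin 1 receptor from hepatocytes does to the liver, and whole livers were sequenced from 4 control mice, 154, 159, 181 and 193, and from 4 Mc1r LKO mice, 141, 156, 157 and 182. Mc1r LKO mice carried Mc1r fl/fl alleles together with an Alb-driven Cre, and control mice were age-matched Mc1r fl/fl animals. All mice were male by the study's methods and were fed a cholesterol-rich Western diet for 12 weeks, so no mouse on a standard diet stands beside them. The Alb promoter is active in hepatocytes, and the model is not designed to delete Mc1r in the macrophages, lymphocytes and endothelial cells of the liver.

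Interleukin-1β and TNF are made mainly by activated macrophages and switch on the transcription factor NF-kappaB in the cells around them, while interleukin-6 acts through STAT3 and drives the acute phase response of hepatocytes. Chemokines recruit leukocytes from the blood along gradients: Ccl2 draws monocytes, Ccl5 T cells and monocytes, Ccl24 eosinophils, Cxcl1 neutrophils, and Cxcl9 and Cxcl10, both induced by interferon-gamma, activated T cells. In a fatty liver, resident macrophages called Kupffer cells, recruited monocytes and stressed hepatocytes are known sources of these signals.

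Several of the genes are neighbours in the mouse genome (build GRCm38), where Cxcl9 (chromosome 5, 92321347 to 92328079, minus strand) and Cxcl10 (chromosome 5, 92346638 to 92348889, minus strand) are 18.6 kb apart and Ccl5 and Ccl6 on chromosome 11 are 57.4 kb apart. Promoter sequences from RefSeq (GRCm38.p6) were at hand for 7 of the 10 genes, Il1b, Tnf, Il6, Ccl6, Cxcl9, Cxcl10 and Cxcl1. The 3 CXC genes are printed because they fall into different patterns over the mice, as given further on. Each line holds the 250 bases before the transcription start, 5′ to 3′ on the strand of the gene, with matches to 4 motifs in capitals. The windows are chr5:92328080-92328329 for Cxcl9 and chr5:92348890-92349139 for Cxcl10, both on the minus strand, and chr5:90890995-90891244 on the plus strand for Cxcl1.
Cxcl9: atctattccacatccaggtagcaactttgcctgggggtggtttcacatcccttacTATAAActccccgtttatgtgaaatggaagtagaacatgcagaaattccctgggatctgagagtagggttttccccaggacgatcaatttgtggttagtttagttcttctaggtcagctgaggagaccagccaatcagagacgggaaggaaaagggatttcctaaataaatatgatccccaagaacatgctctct
Cxcl10: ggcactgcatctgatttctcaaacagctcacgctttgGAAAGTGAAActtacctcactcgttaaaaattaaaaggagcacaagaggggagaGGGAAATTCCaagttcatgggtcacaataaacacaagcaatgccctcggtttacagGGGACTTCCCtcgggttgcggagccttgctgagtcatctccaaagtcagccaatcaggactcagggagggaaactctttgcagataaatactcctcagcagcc
Cxcl1: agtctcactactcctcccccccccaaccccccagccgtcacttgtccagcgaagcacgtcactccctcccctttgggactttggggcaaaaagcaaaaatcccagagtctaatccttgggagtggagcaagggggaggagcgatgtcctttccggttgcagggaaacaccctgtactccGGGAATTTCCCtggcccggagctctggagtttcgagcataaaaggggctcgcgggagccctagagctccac

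The motifs were searched on both strands from 250 bases before to 50 bases after the start. They were the NF-kappaB consensus, the interferon-stimulated response element ISRE (GAAA, any 2 bases, GAAA), the gamma-activated sequence GAS (TTCNNNGAA) and the TATA box (TATAAA). The NF-kappaB consensus was in 3 of the 7 promoters, those of Il6, Cxcl10 and Cxcl1, and in 4.51% of all 32851 RefSeq promoters of the same length. Cxcl10 held 2 such matches, GGGAAATTCC and GGGACTTCCC, which begin 159 and 103 bases before the start, and the 2 matches of Cxcl1 were one stretch, GGGAATTTCCC, read on both strands. The Il6 match, GGGATTTTCC, begins 44 bases before the start. ISRE was found in Cxcl10 alone among the 7, as GAAAGTGAAA beginning 213 bases before the start, against 3.44% of all promoters. No GAS match lay in the 7 windows (8.30% of all promoters), and TATAAA was in those of Il1b, Tnf and Cxcl9 (13.6% of all promoters). In Il1b and Tnf it begins 31 and 29 bases before the start, and in Cxcl9, where it is capitalised above, 195 bases before it. These are matches of letters and say nothing of binding in these livers.

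The total count ranged from 10773151 in mouse 159 to 24763375 in mouse 157, with medians of 19011300.5 for control and 18359704.5 for Mc1r LKO livers. The hepatocyte markers Alb, Apoa1, Ttr, Cyp2e1, Hnf4a and Tat summed to between 71429 and 102075 CPM (counts relative to library size) in every mouse. Mc1r itself had 0 counts in all 8 mice, so the labels could not be checked on it. A count of 0 allows up to 3 counts, which is between 0.121 and 0.279 CPM depending on the mouse and covers counting error only. CPM values below are scaled by TMM-normalised library size. The exceptions are those of Tnf and Il6 counts summed over the mice of a genotype, which are divided by the summed total counts. Differences were tested with edgeR's quasi-likelihood test over the 13400 genes that passed its filter on low counts.

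None of the 10 genes differed between the genotypes at an adjusted p under 0.05, and 0% of the 13400 genes tested did by edgeR. DESeq2 called 17 genes at that threshold, but gave an adjusted p to only 2 of the 8 tested genes, Ccl6 (0.970) and Cxcl9 (0.782), so it could not have called the others. Il1b, Tnf, Ccl2, Ccl5, Ccl6, Ccl24, Cxcl9 and Cxcl10 had lower means in Mc1r LKO mice, whereas the mean of Cxcl1 was higher because of 1 mouse, number 182. Ccl24 and Il1b had unadjusted p-values under 0.05, and both were lower in Mc1r LKO mice. In 8 of the 10 genes counts were high enough to be tested, and Tnf and Il6 were not. For the 8 tested genes the median log2 fold change was -0.60, beside -0.011 over all genes tested, and 7 of the 8 were lower. Without mouse 159 the median was -0.32 and 5 of 8 were lower. It was -0.38 without mouse 141 and -0.37 without mouse 156, and -0.92 without mouse 154 and -0.89 without mouse 181. Those fits each tested 9 genes, because Tnf passed the filter in them, so their medians are not over the same 8 genes. Without mouse 141 and without mouse 154 the median was the value of Tnf itself. The part of the added gene in these shifts was not separated from that of the mouse left out. At an unadjusted p under 0.05, 2 of the 8 were called, against 6.72% of all genes tested in either direction and 2.87% in the lower direction. In none of the 8 did every Mc1r LKO mouse lie on one side of every control mouse, which 4.16% of all genes did. Because whole liver was measured, fewer cells that make a transcript and less transcript per cell cannot be told apart for any of these genes.

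**Figure D1:**
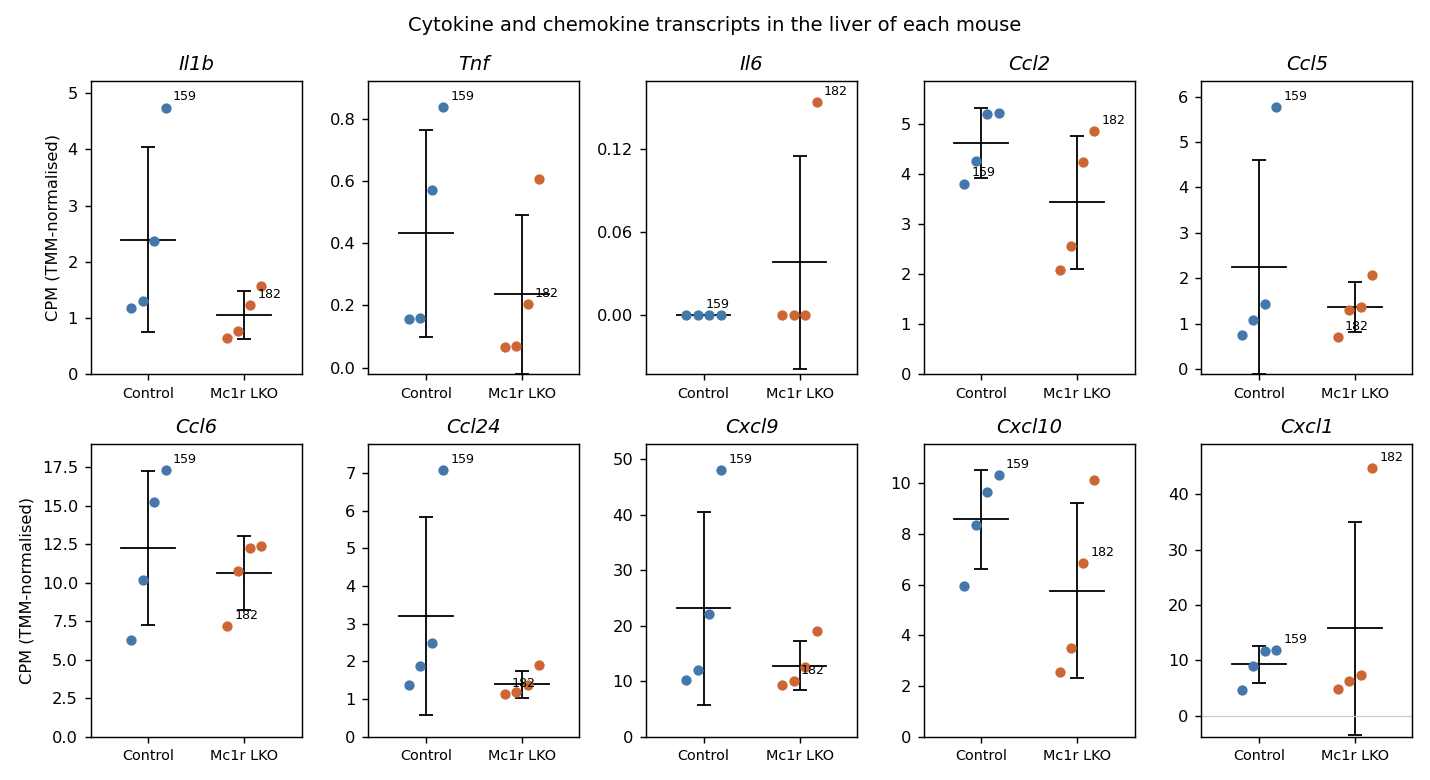
TMM-normalised CPM of the 10 genes in each of the 8 livers, 1 panel per gene with its own linear axis, points for mice, a line for the mean and bars for the SD of 4 mice. Control mouse 159 is the highest point for Il1b, Tnf, Ccl5, Ccl6, Ccl24, Cxcl9 and Cxcl10, Mc1r LKO mouse 182 is the highest for Cxcl1 and the only mouse with Il6 counts, and the genotypes overlap in every panel.

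Levels between genes were compared per exon length, as TPM, which divides counts by exon length before scaling. Cxcl1, Ccl6 and Cxcl9 were the most abundant, with means over the 8 mice of 15.4 TPM (range 6.19 to 51.6), 15.4 ± 5.22 TPM (SD) and 14.2 ± 10.0 TPM. Ccl2 and Cxcl10 followed at 8.49 ± 2.59 and 7.64 ± 3.28 TPM, then Ccl5 and Ccl24 at 4.49 ± 3.96 and 4.23 ± 3.53 TPM. Neighbours in this order were not separated from mouse to mouse, since Cxcl1 exceeded Ccl6 in 2 of 8 mice, Ccl6 exceeded Cxcl9 in 5, Cxcl9 exceeded Ccl2 in 5, Ccl2 exceeded Cxcl10 in 6, Cxcl10 exceeded Ccl5 in 5 and Ccl5 exceeded Ccl24 in 3. Il1b lay below Ccl24 in 8 of 8 mice at 2.16 ± 1.63 TPM, Tnf below Il1b in 8 of 8 at 0.487 ± 0.427 TPM, and Il6 last in 8 of 8 at 0.0171 ± 0.0483 TPM. The chemokines of this list were thus measured above the classical cytokines in these livers.

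**Figure D2:**
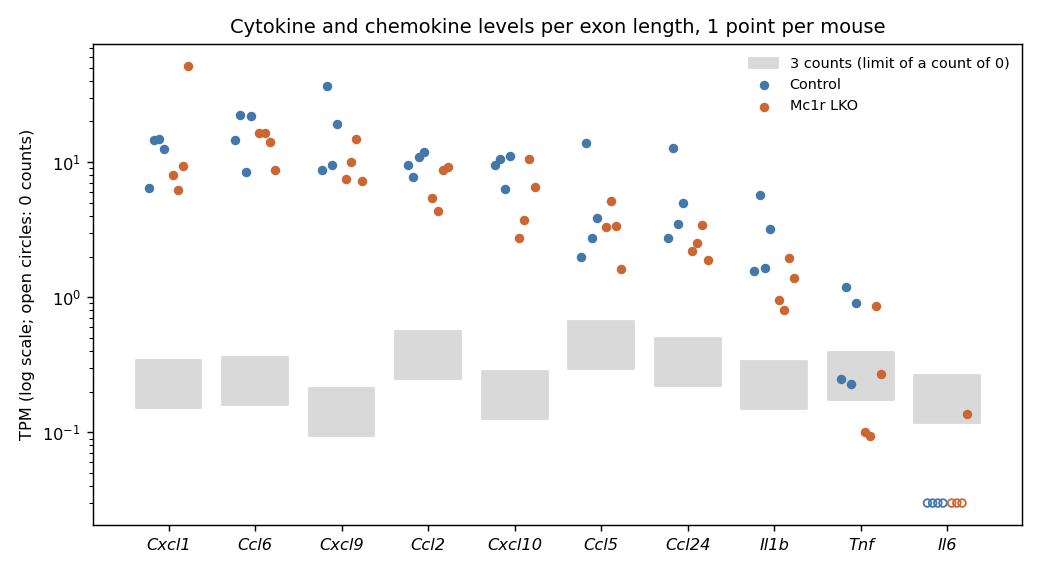
TPM of the 10 genes on a logarithmic axis in order of their mean, 1 point per mouse, with the grey block spanning the TPM that 3 counts correspond to in the 8 mice and open circles for mice with 0 counts. The other 8 genes lie above the block in every mouse, Tnf straddles it, and Il6 has a single point, in mouse 182, at 0.136 TPM.

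Il1b (chromosome 2, 129364570 to 129371139, minus strand) encodes interleukin-1β. Its level in control mice was 1.17, 4.74, 1.30 and 2.36 CPM in mice 154, 159, 181 and 193. In Mc1r LKO mice it was 0.760, 0.650, 1.58 and 1.23 CPM in mice 141, 156, 157 and 182. Mice 159 and 193 were above every Mc1r LKO mouse, while mice 154 and 181 lay within the Mc1r LKO range. The means were 2.39 ± 1.65 and 1.05 ± 0.429 CPM (SD, n = 4 each). The log2 fold change was -1.11 with a standard error of 0.49 and a 95% interval of -2.20 to -0.019, and edgeR gave an unadjusted p of 0.0461 and an adjusted p of 0.735. Without mouse 159 the log2 fold change was -0.59 and the unadjusted p by edgeR 0.193.

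Tnf (chromosome 17, 35199381 to 35202007, minus strand), which encodes tumour necrosis factor, was close to the detection limit. Control mice 154, 159, 181 and 193 had 3, 9, 3 and 14 counts. Mc1r LKO mice 141, 156, 157 and 182 had 1, 1, 15 and 4 counts. A single mouse of each genotype held 10 counts or more, mouse 193 and mouse 157. Scaled to library size, control mice ranged from 0.156 to 0.837 CPM and Mc1r LKO mice from 0.0650 to 0.606 CPM, so the ranges overlapped in part. Mouse 159 was the highest, and mice 141 and 156 were below every control mouse. Summed over mice, the 29 control counts make 0.403 CPM (exact Poisson 95% interval 0.270 to 0.579) and the 21 Mc1r LKO counts 0.277 CPM (0.172 to 0.424), intervals that cover counting error only and overlap. The mean difference of -0.195 CPM gave p = 0.314 in a two-sided exact permutation test, in which 4 mice against 4 cannot go below 0.0286. In a fit without the filter the ratio of Mc1r LKO to control was 0.618 with a 95% interval of 0.187 to 2.05. Ratios across that interval, both below and above 1, are compatible with these counts. Its width holds the spread between mice as well as counting error.

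Il6 (chromosome 5, 30013114 to 30019981, plus strand) was at 0 counts in 7 of 8 livers. The only 3 counts were in Mc1r LKO mouse 182. The 0 counts among the 71957132 of the 4 control mice allow up to 3 counts, or 0.0417 CPM, by a one-sided limit. Their exact Poisson 95% interval is 0 to 0.0513 CPM. The 3 counts of the Mc1r LKO mice make 0.0396 CPM (exact Poisson 95% interval 0.00817 to 0.116). With counts in a single mouse no test between the genotypes can be informative, and no fold change is given. Per exon length, 3 Il6 counts correspond to between 0.117 and 0.266 TPM depending on the mouse.

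Among the CC chemokines, Ccl24 (chromosome 5, 135569937 to 135573049, minus strand), an eotaxin that attracts eosinophils through Ccr3, had the largest difference. Control mice 154, 159, 181 and 193 had 1.38, 7.07, 1.88 and 2.49 CPM. Mc1r LKO mice 141, 156, 157 and 182 had 1.18, 1.36, 1.90 and 1.12 CPM. Mouse 159 stood 3.69 times above the mean of the other 3 control mice, mouse 193 was also above every Mc1r LKO mouse, and mice 154 and 181 were not. The means were 3.20 ± 2.61 and 1.39 ± 0.354 CPM (SD, n = 4 each), and the log2 fold change was -1.14 with a standard error of 0.49. Its 95% interval was -2.24 to -0.047, with an unadjusted p of 0.0420 and an adjusted p of 0.735 from edgeR. Without mouse 159 the log2 fold change was -0.45, with an unadjusted p of 0.203 by edgeR.

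Ccl2 (chromosome 11, 82035571 to 82037453, plus strand) is the main attractant of Ccr2-bearing monocytes. It was at 4.25, 3.81, 5.21 and 5.22 CPM in control mice 154, 159, 181 and 193. It was at 2.56, 2.08, 4.24 and 4.85 CPM in Mc1r LKO mice 141, 156, 157 and 182. Mice 141 and 156 were below every control mouse and mice 157 and 182 lay among them. Mouse 159, the highest liver for most of the other genes, had the least Ccl2 of the control mice. The log2 fold change was -0.42 with a standard error of 0.28 and an adjusted p of 0.843 by edgeR. Without mouse 182 it was -0.62, with an unadjusted p of 0.0450 and an adjusted p of 0.620 by edgeR.

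Ccl5 (chromosome 11, 83525778 to 83530518, minus strand), a chemokine made by T cells among others, was at 0.744, 5.76, 1.09 and 1.43 CPM in control mice 154, 159, 181 and 193. Mc1r LKO mice 141, 156, 157 and 182 had 1.31, 2.08, 1.37 and 0.715 CPM. Mouse 159 stood 5.30 times above the mean of the other control mice, which lay within the Mc1r LKO range. The log2 fold change was -0.66 with a standard error of 0.63 and an adjusted p of 0.897 by edgeR. Without mouse 159 it turned to 0.32, with an adjusted p of 0.952 by edgeR, so the direction for Ccl5 rests on that mouse.

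Ccl6 (chromosome 11, 83587882 to 83593087, minus strand), a chemokine of macrophages and other myeloid cells in mice, was at 10.2, 17.3, 6.31 and 15.2 CPM in control mice 154, 159, 181 and 193. Mc1r LKO mice 141, 156, 157 and 182 had 12.2, 12.4, 10.7 and 7.20 CPM. The Mc1r LKO values lay inside the control range in all 4 mice. The log2 fold change was -0.20, with a 95% interval of -0.85 to 0.46 and an adjusted p of 0.933 by edgeR. Without mouse 159 it was 0.0095, with an adjusted p of 0.997 by edgeR.

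The CXC chemokines Cxcl9 and Cxcl10 both bind Cxcr3 and are textbook targets of interferon-gamma. Cxcl9 was at 10.2, 48.0, 12.1 and 22.2 CPM in control mice 154, 159, 181 and 193. It was at 9.40, 12.6, 19.1 and 10.1 CPM in Mc1r LKO mice 141, 156, 157 and 182. Mice 159 and 193 were above every Mc1r LKO mouse, the same 2 control mice as for Il1b and Ccl24. The means were 23.1 ± 17.4 and 12.8 ± 4.43 CPM (SD, n = 4 each). The log2 fold change was -0.82 with a standard error of 0.45, an unadjusted p of 0.0962 and an adjusted p of 0.786 by edgeR. Without mouse 159 it was -0.20, with an unadjusted p of 0.533 by edgeR.

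Cxcl10 differed from its neighbour in which mice stood apart. Control mice 154, 159, 181 and 193 had 8.35, 10.3, 5.94 and 9.66 CPM, a range of less than 2 times. Mc1r LKO mice 141, 156, 157 and 182 had 2.56, 3.51, 10.1 and 6.85 CPM. Mice 141 and 156 were below every control mouse, as for Ccl2, and mouse 157 was level with mouse 159. The means were 8.57 ± 1.93 and 5.76 ± 3.45 CPM (SD, n = 4 each), and the log2 fold change was -0.55 with a standard error of 0.38 and an adjusted p of 0.846 by edgeR. Without mouse 157 the log2 fold change was -0.96, with an unadjusted p of 0.0195 and an adjusted p of 0.829 by edgeR.

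Cxcl1 (chromosome 5, 90891241 to 90893115, plus strand), which attracts neutrophils through Cxcr2, was the exception in direction. Control mice 154, 159, 181 and 193 had 4.68, 11.8, 11.7 and 8.97 CPM. Mc1r LKO mice 141, 156, 157 and 182 had 6.22, 4.87, 7.43 and 44.7 CPM. Mouse 182, with 875 counts, stood 7.24 times above the mean of the other 3 Mc1r LKO mice, which lay within the control range. The means were 9.28 ± 3.34 and 15.8 ± 19.3 CPM (SD, n = 4 each), and the log2 fold change was 0.79 with a standard error of 0.66 and an adjusted p of 0.882 by edgeR. Without mouse 182 the log2 fold change was -0.57, with an unadjusted p of 0.0903 and an adjusted p of 0.660 by edgeR.

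**Figure D3:**
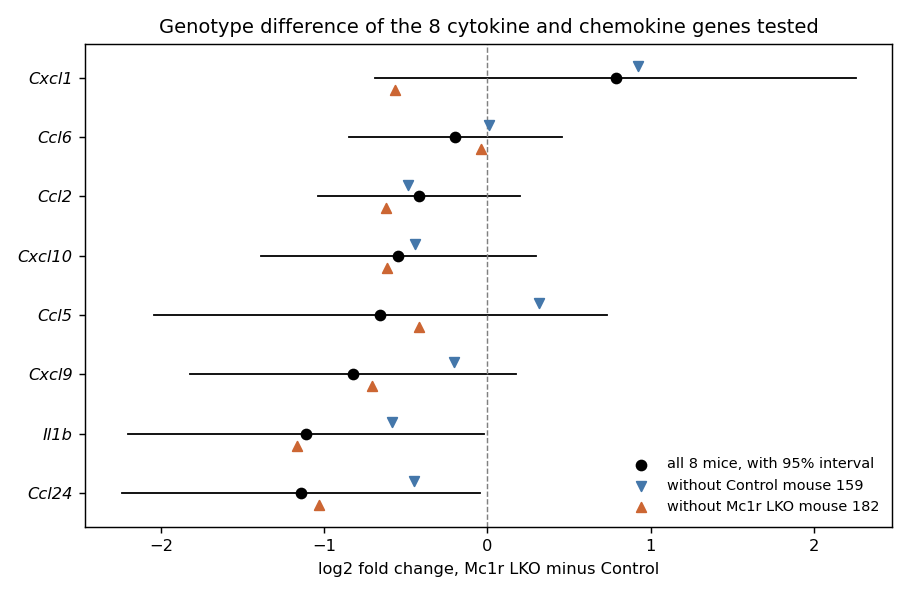
Log2 fold change (Mc1r LKO minus control) of the 8 tested genes from edgeR, with black points and lines for all 8 mice and their 95% intervals, and triangles for fits without mouse 159 or without mouse 182. The intervals of Ccl24 and Il1b end just below 0, leaving out mouse 159 moves Ccl24, Il1b and Cxcl9 toward 0 and Ccl5 across it, and leaving out mouse 182 moves Cxcl1 from 0.79 to -0.57.

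These 8 genes varied more between mice of one genotype than most of the genes tested, which were not matched to them for level. By mean TPM the 8 genes lay above 23.5% (Il1b) to 68.0% (Cxcl1) of the genes tested. The biological coefficients of variation of the 8 genes, the spread between mice beyond counting error, were between 0.271 for Ccl2 and 0.622 for Cxcl1. The median over all genes tested was 0.173. The value of Cxcl1 was above that of 98.6% of the genes tested, that of Ccl5 above 98.0% and that of Ccl2 above 75.9%. The highest mouse exceeded the lowest 9.56 times for Cxcl1, 8.06 times for Ccl5, 7.30 times for Il1b and 2.51 times for Ccl2.

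Much of this spread ran along the same livers. Mouse 159 was the highest of the 8 mice for Il1b, Ccl5, Ccl6, Ccl24, Cxcl9 and Cxcl10, and its median over the 8 tested genes was 1.20 above the median of the mice on the log2 scale. Mouse 193 was above that median for 8 of 8 genes, by 0.38 in the median. The lowest median values were those of Mc1r LKO mice 156 and 141, at -0.48 and -0.41. Mouse 157, also Mc1r LKO, was above the median of the mice for 5 of 8 genes. Mouse 182 was highest for Cxcl1 and lowest for Ccl5 and Ccl24, so its high value was not shared by these genes.

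**Figure D4:**
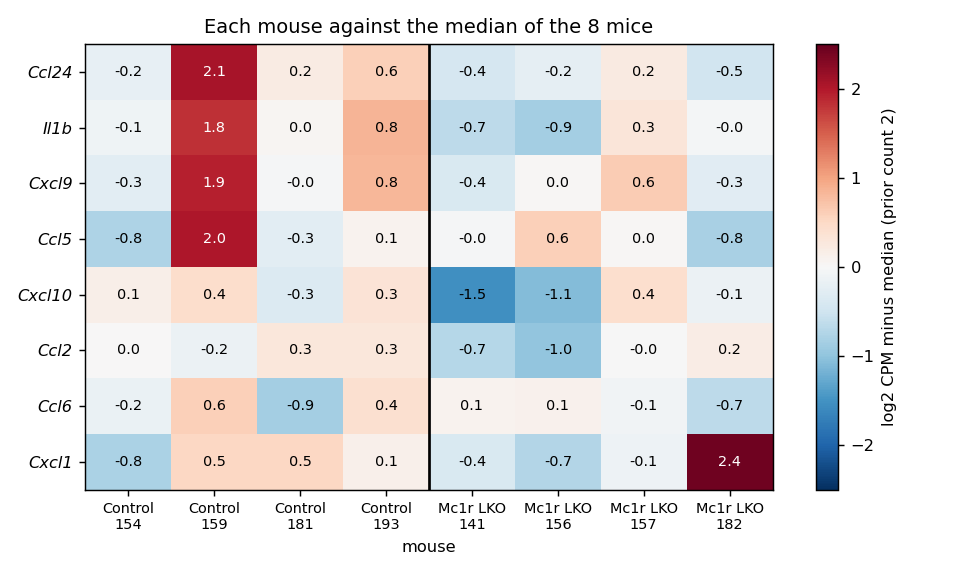
Log2 CPM of the 8 tested genes in each mouse minus the median of the 8 mice, with red for higher and blue for lower values. Mouse 159 is about 2 log2 units above the median for Ccl24, Il1b, Cxcl9 and Ccl5 and near it for Ccl2 and Cxcl10, and mouse 182 is 2.4 above it for Cxcl1 alone.

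The genes whose levels ran most like each of the 8 over the 8 mice were found by Pearson's r of log2 CPM among all other tested genes, and r is a description here, since 8 mice are few and many genes were searched. For Cxcl9 these were Gbp3, Odf2l and Irf7 (r = 0.993, 0.985 and 0.979), of which Gbp3 and Irf7 are interferon-induced. For Il1b they were Parp14, Gbp10 and Pla2g4a (r = 0.982, 0.982 and 0.967), for Ccl24 Samhd1, Tap1 and Ly6a (r = 0.994, 0.988 and 0.974), and for Ccl5 Gm37090, Pstpip1 and Tapbpl (r = 0.975, 0.971 and 0.969). These 12 genes were likewise highest in mouse 159, and without that mouse r was between 0.882 for Tapbpl and 0.981 for Odf2l. For Ccl6 they were Slfn9, Mpp1 and Agpat1 (r = 0.994, 0.989 and 0.984). Cxcl10 ran instead with Zmat3, Ppp1r13b and Vps53 (r = 0.978, 0.948 and 0.943), and Ccl2 with Rnmt, Twsg1 and Limd1 (r = 0.977, 0.969 and 0.959). Cxcl1 ran with Lifr, Acsm1 and Klkb1 (r = 0.989, 0.981 and 0.980), all highest in mouse 182, and without it r was between 0.952 and 0.980. Lifr encodes the receptor of leukaemia inhibitory factor, and Acsm1 and Klkb1 are genes of the liver.

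Of the receptors of these 10 proteins, Tnfrsf1b, the TNF receptor 2, ranged from 26.4 to 33.0 CPM in control and from 35.6 to 40.3 CPM in Mc1r LKO mice. Il6ra, the ligand-binding chain of the interleukin-6 receptor, ranged from 18.5 to 27.4 CPM and from 29.6 to 52.9 CPM. Neither range overlapped between the genotypes, and the log2 fold changes were 0.34 and 0.70 with unadjusted p-values of 0.0046 and 0.0049 and adjusted p-values of 0.734 by edgeR. Over the 18 genes listed as receptors, inhibitors and processing of these cytokines, 16 were tested, 2 were higher and 0 lower at an unadjusted p under 0.05, and the median log2 fold change was 0.020. Nlrp3, the sensor of the inflammasome that matures interleukin-1β, had a log2 fold change of -1.05 with an unadjusted p of 0.0582 by edgeR.

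Of the 23 chemokine receptors 10 were tested, and their median log2 fold change was -0.21. Ccr2, the receptor of Ccl2, was at 1.25 to 6.16 CPM in control and 1.02 to 5.53 CPM in Mc1r LKO mice and had a log2 fold change of 0.013, with an adjusted p of 0.996 by edgeR. Ccr3, the receptor of Ccl24, was at 0 in 4 of 8 mice and at most 0.0815 CPM, below what 3 counts allow, and Cxcr3 and Cxcr2 stayed at or below 0.571 and 0.646 CPM. Ccr2, Ccr3, Cxcr2 and Cxcr3 were named for their ligands after their values were seen.

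The other chemokines gave no call at an unadjusted p under 0.05 by edgeR. Of 16 other CC chemokines 5 were tested, with a median log2 fold change of -0.064, and of 14 other CXC, CX3C and C chemokines 7 were tested, with a median of -0.094. Cxcl11, the third ligand of Cxcr3, was at 4.72 CPM on average in control and 3.87 CPM in Mc1r LKO mice, with a log2 fold change of -0.29 and an adjusted p of 0.871 by edgeR. Of 20 other cytokines 8 were tested, with a median of -0.30. One of them, Tnfsf10, the death ligand TRAIL, was lower at an unadjusted p under 0.05, with a log2 fold change of -0.65 (unadjusted p = 0.0124 and adjusted p = 0.734 by edgeR).

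In lists of NF-kappaB, interferon-gamma and STAT3 pathway genes, a few genes were called at an unadjusted p under 0.05, some higher and some lower. Over all genes tested 6.72% were called by edgeR and 4.16% did not overlap between the genotypes. These shares stand beside the calls of every list here, and so few calls are not read as a result about a list. Of 18 NF-kappaB feedback and target genes, all tested, Nfkbia, which encodes the inhibitor IκBα, was higher in every Mc1r LKO mouse than in every control mouse (log2 fold change 0.37, unadjusted p = 0.0026 by edgeR). Tnfaip2, a TNF-induced gene, was lower in every Mc1r LKO mouse (log2 fold change -0.60, unadjusted p = 0.0065 by edgeR). The median of that list was -0.11. Of 9 interferon-gamma signalling genes 8 were tested, with a median of -0.30. Ciita, which drives MHC class II genes, was the one called (log2 fold change -1.44, unadjusted p = 0.0332 by edgeR) and was highest, at 11.4 CPM, in mouse 159. Irf1, an interferon-induced transcription factor, had a log2 fold change of -0.48 with an unadjusted p of 0.0647 by edgeR. Of 8 genes of interleukin-6 and STAT3 feedback, the only one called was Il6ra, already given among the receptors, and the median was -0.11. None of the listed genes had an adjusted p-value under 0.05 by edgeR.

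Markers of cells that could make these transcripts were high in some of the same livers. The 8 Kupffer cell markers, all detected in every mouse, summed to 302, 649, 279 and 422 CPM in control mice 154, 159, 181 and 193 and to 263, 394, 291 and 195 CPM in Mc1r LKO mice 141, 156, 157 and 182. Mouse 159 was again the highest and mouse 182 the lowest. The log2 fold changes of the 8 markers were below 0 in 8 of 8, with a median of -0.42, and 1 had an unadjusted p under 0.05. This was Csf1r, with a log2 fold change of -0.77 and an unadjusted p of 0.0375 by edgeR. Without mouse 159 the median was -0.15, without mice 159 and 182 together -0.020, and without mouse 156 -0.69. The 11 T and NK cell markers summed to 11.2 CPM in mouse 159, against a range of 2.66 to 5.06 CPM over the other 7 mice. Gzma and Gzmb, at 2.97 and 2.14 CPM, and Ncr1, Klrb1c, Nkg7 and Cd3e were highest in mouse 159. The T cell markers Cd3d, Cd3g, Cd4, Cd8a and Trac were each highest in another mouse. Of the 11 markers only Cd4 was tested. It was highest in Mc1r LKO mouse 182, with a log2 fold change of 0.46 and an adjusted p of 0.921 by edgeR. The part of Kupffer cells and lymphocytes in the differences of Il1b, Ccl24, Cxcl9 and Ccl5 was not tested.

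The 8 markers of monocytes and recruited macrophages summed to between 80.7 and 215 CPM in control and between 42.9 and 301 CPM in Mc1r LKO mice. Of these, Spp1 alone ranged from 49.1 to 142 CPM and from 16.8 to 239 CPM. Ly6c2, Itgam and Chil3 reached at most 0.808, 1.23 and 0.372 CPM, so the sums say little of these 3. Over the 6 markers tested, the median log2 fold change was 0.14, and it turned to -0.21 without mouse 141, -0.11 without mouse 156 and -0.23 with limma-voom. The median was 0.49 without mouse 182 and 0.64 without mouse 193. Those 2 fits each tested 7 markers, so their medians are not over the same 6. The 7 neutrophil markers summed to between 5.89 and 12.6 CPM and between 4.63 and 10.2 CPM, and of the 3 tested Csf3r was lower in every Mc1r LKO mouse than in every control mouse (log2 fold change -0.77, unadjusted p = 0.0458 by edgeR). The other 2 neutrophil genes tested, S100a8 and S100a9, had log2 fold changes of 0.53 and 0.39 with adjusted p-values over 0.05 by edgeR. The 4 markers of eosinophils and mast cells, the cells Ccl24 attracts among them, summed to at most 0.465 CPM with 2 to 4 of the 4 at 0 in each mouse. Median log2 fold changes were -0.0082 for 3 B and plasma cell markers, -0.42 for 3 dendritic cell markers, -0.16 for 5 endothelial, -0.12 for 6 stellate cell and 0.36 for 3 cholangiocyte markers, with no gene called. The 6 hepatocyte markers had a median of 0.14, and Tat was called (log2 fold change 0.88, unadjusted p = 0.0374 by edgeR). Leaving out a single mouse turned the sign of the median for the neutrophil, B and plasma cell, dendritic and stellate cell markers, for the other CC chemokines and for the receptors, inhibitors and processing of the cytokines, so no direction is read from these. For the dendritic cell markers the fits that did so tested 4 genes and not the same 3.

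**Figure D5:**
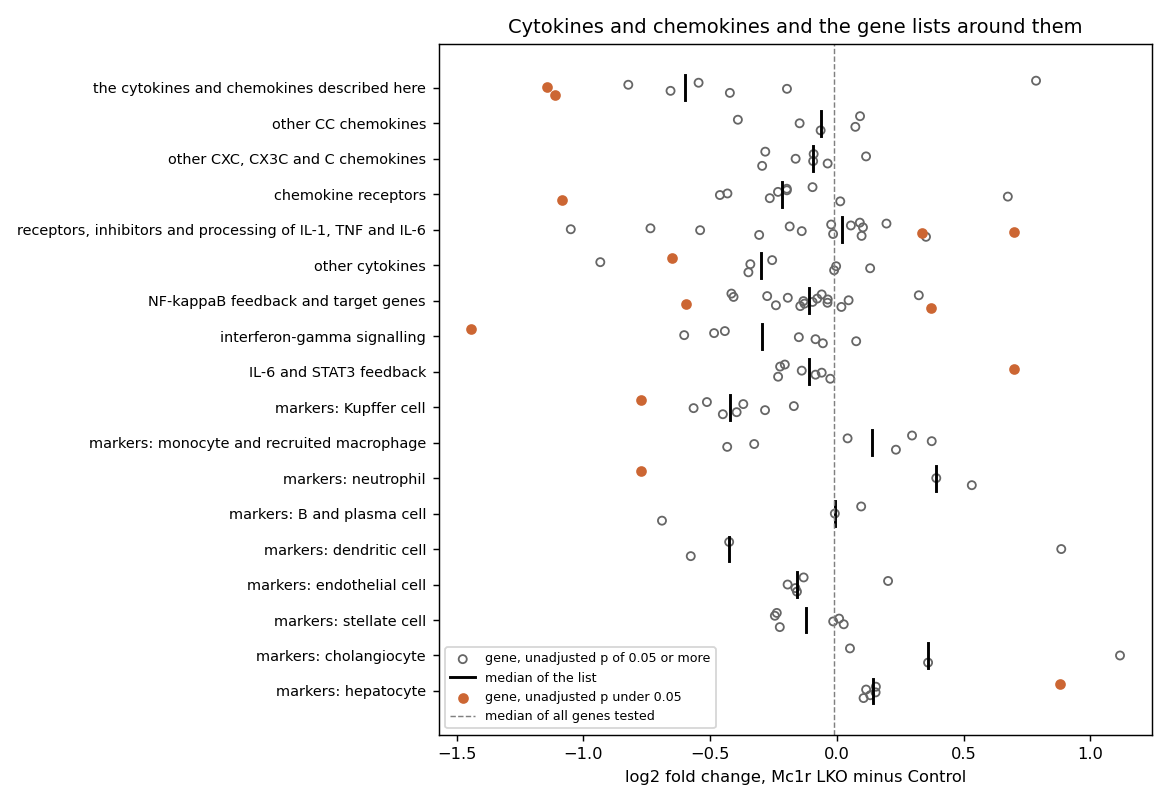
Log2 fold change (Mc1r LKO minus control) of every tested gene of the cytokines and chemokines and of the lists around them with at least 3 tested genes, with filled points for an unadjusted p under 0.05 by edgeR, bars for list medians and a dashed line for the median of all genes tested. The cytokines and chemokines have a median of -0.60, with Cxcl1 alone to the right of 0, and the Kupffer cell markers have a median of -0.42.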

How the data were processed

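Liver RNA of 8 mice was sequenced from stranded poly(A) libraries. The authors trimmed reads with Trim Galore 0.6.6, aligned them with STAR 2.7.6a and counted read pairs on genes with featureCounts of Subread 2.0.1, by strand, and they deposited raw whole-number counts per gene, 1 table per mouse. The file headers name an Ensembl annotation of GRCm38, while the methods write GRCh38. Groups were taken from the sample labels. No batch or pairing is labelled.

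The deposited counts were passed through filterByExpr (minimum count 10, minimum total 15) and TMM, and the genotypes were compared with edgeR 4.0.16 (glmQLFit, glmQLFTest, R 4.3.3). P-values were adjusted by Benjamini and Hochberg's method across all 13400 genes tested. A prior count of 2 entered log2 CPM. TPM used annotated exon lengths. Tnf was compared by an exact permutation test (scipy 1.17.1). DESeq2 1.42.0, limma 3.58.1 (voom), other normalisations and filters, thinned counts and leaving out each mouse were alternatives. Of the genes, 55141 of 55487 matched a symbol.

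Besides the 10 genes and Mc1r, the rule named for each tested gene its 3 most similar genes and for each list up to 4 genes with the smallest p-values and all with an unadjusted p under 0.05. The members and lists were chosen with earlier results of these data known. Some genes that the rule named are not reported here.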

Additional observations from a re-analysis of the deposited data

Results flagged for a closer look

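Values in 3 of the 42 sets of 4 mice of one genotype that were checked had a single mouse far from the other 3 by Dixon's criterion, where chance alone gives about 2.1. For Ccl5, control mouse 159 had 5.76 CPM, while the other 3 control livers had 0.744 to 1.43 CPM. For Cxcl1, Mc1r LKO mouse 182 had 44.7 CPM and the other 3 Mc1r LKO livers 4.87 to 7.43 CPM. Il6 was at 0.153 CPM, or 3 counts, in Mc1r LKO mouse 182 and at 0 in the other Mc1r LKO mice, a gap within the 3 counts that a count of 0 allows. With 0 in the other 3 mice, any count in mouse 182 would have been flagged.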

How the results depend on the processing

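Of 136 log2 fold changes of the 8 tested genes under alternatives, 130 kept their direction and 6 reversed. DESeq2 gave no adjusted p for 6 of its 8 values, and no value that had one reached an adjusted p under 0.05 (lowest 0.452, for Ccl2 without mice 159 and 182 together, a choice made after seeing the data). When single mice were left out, Ccl5 ranged from -0.95 (without mouse 154) to 0.32 (without 159), Ccl6 from -0.41 (without 181) to 0.0095 (without 159), and Cxcl1 from -0.57 (without 182) to 1.08 (without 156). Without both mice Ccl5 was 0.53, Ccl6 0.15 and Cxcl1 -0.44, and 1375 genes had an unadjusted p under 0.05, beside 901 with all mice. Of the 10 genes, 2 had an unadjusted p under 0.05. That number was 0 with limma-voom, 1 (Il1b) with counts thinned to the lowest total, 1 (Ccl2) without both mice, 3 (with Cxcl9) without the count filter, and 0 to 3 when single mice were left out, being 0 without mouse 159, 141 or 156, 1 without mouse 193 or 182 and 3 without mouse 154, 181 or 157. Leaving out any of the 8 mice thus moved the number, and the cause was not tested. Over all genes, 17 had an adjusted p under 0.05 with DESeq2 and 1 without the count filter, beside 0 by edgeR, where 901 had an unadjusted p under 0.05. With library size alone as the normalisation, 226 of 798 genes with an unadjusted p under 0.05 were higher in Mc1r LKO mice, beside 517 of 901 with TMM, and 7 of the 8 tested genes were lower with both. Counts of Tnf and Il6 limit what can be said of them. No paired analysis was possible because the labels give the genotypes no shared replicate numbers.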
